A study of Mus musculus with 32 samples.

Results

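The endothelial cells (ECs) described here are the CD31+ cells sorted from islets after 1 week of doxycycline (1wk Dox), for which the sample labels used here name 1 sample, set against the 4 samples of the same cells from untreated mice (No Dox). These 5 samples are part of 32 RNA-sequencing samples of β cells, ECs, and macrophages (MΦs), 10 of which are ECs. They were chosen by their sample labels, and 14047 of the 22850 genes in the table were described, those with a score of 20 or more in either group. A score is the authors' normalized expression value, rounded to a whole number, with 1 as the lowest value.

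All mice carried 3 transgenes, MIP-GFP, RIP-rtTA, and also TetO-VEGF-A, and so did the No Dox mice. Under Dox their β cells make human VEGF-A, since rtTA is expressed there from a rat *Ins2* promoter, and GFP under a mouse *Ins1* promoter marks the same cells. Because the induced ligand is human, the score of mouse *Vegfa* is no readout of the transgene. Mice of the No Dox group were not induced, 1wk Dox mice received Dox for 1 week, and the 5 EC samples from mice 1 week after its withdrawal (1wk WD) are set beside them where useful. The islets of several mice were pooled for a sample, and the labels of these samples give no age.

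Islet capillaries are dense and fenestrated, and β cells maintain them by secreting VEGF-A. The ligand binds VEGFR2, the receptor encoded by *Kdr*, on ECs, and drives their proliferation, migration as tip cells, and permeability. New vessels also lay down and cut a basement membrane of type IV collagen, laminins, and nidogens, which in islets is made by ECs.

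The deposited table also has 3 EC columns that share the header prefix of the 1wk Dox sample but match no sample label, and these were not analysed here. The study describes several replicates per time point and a second deposited series, so those columns may be further 1wk Dox samples, and a single sample is what the labels used here give rather than the design of the study. With 1 labelled sample at 1wk Dox no spread within that group was measured, so no test was run and no p-value is given. A difference is log2(score + 1) of the 1wk Dox sample minus the mean log2(score + 1) of the 4 No Dox samples, which understates the change of genes near the lowest score. A gene was called higher when it was at least 2-fold higher and above the highest No Dox sample, and lower when it was at least 2-fold lower and below the lowest. By this rule 737 genes were called higher, 5.25% of those described, and 683 were called lower, 4.86%. Without the 2-fold limit 62.1% of genes lay outside the No Dox range, 35.9% above and 26.3% below it, so being outside the range sets few genes apart. The median difference over all genes was 0.06. At the limit, *Tnfrsf11b* at a difference of 1.00 (1.999-fold) was not called and *Itm2c* at 1.00 (2.001-fold) was. Of the genes called higher 518 were also above all 5 1wk WD samples, 3.69% of the genes described, and of those called lower 385 were also below all 5, 2.74%.

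The sample was endothelial by its markers. *Kdr* was at 77811 at 1wk Dox against 101250, 92107, 105159, and 96683 in No Dox, below all 4, with a difference of -0.34 that was not called. *Pecam1*, which encodes CD31, was at 76505 against 61523 to 75751, and *Cdh5*, the junctional VE-cadherin, at 53986 against 32793 to 42281. Of 12 endothelial markers 1 was called higher, *Cldn5*, and none lower, and their summed score was 617850 at 1wk Dox, 494435 to 527853 in No Dox, and 412560 to 457069 at 1wk WD. Of the MΦ markers *Itgam* (CD11b), at 11, and *Emr1* (F4/80), at 3, were near the lowest score. *Csf1r*, at 224 against 273 to 317, *Cd68*, at 260 against 213 to 309, and *Ly6c2*, at 244 against 347 to 551, were well above it. Of the 5 MΦ and monocyte markers with enough signal 0 were called. The summed score of all 15 MΦ and monocyte markers was 822 against 994 to 1169 in No Dox.

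The library identifier of the 1wk Dox sample belongs to another number series than those of the 4 No Dox and 5 1wk WD EC samples. Of the 32 samples 4 have identifiers of that series, the others being both 1wk Dox MΦ samples and 1 of 3 1wk WD β cell samples. The sources used here do not say what a number series stands for, and within ECs it cannot be told apart from 1wk Dox. Pearson's r on log2(score + 1) over the genes described was 0.918 to 0.948 between the 1wk Dox sample and the No Dox samples, and 0.965 to 0.982 among No Dox samples. It was 0.932 to 0.963 between the 1wk Dox sample and the 1wk WD samples and 0.906 to 0.978 between No Dox and 1wk WD samples, so the ranges between groups overlapped. These are correlations across genes, which are not independent of each other. The No Dox samples also held acinar transcripts that the 1wk Dox sample lacked, described below.

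**Figure D1:**
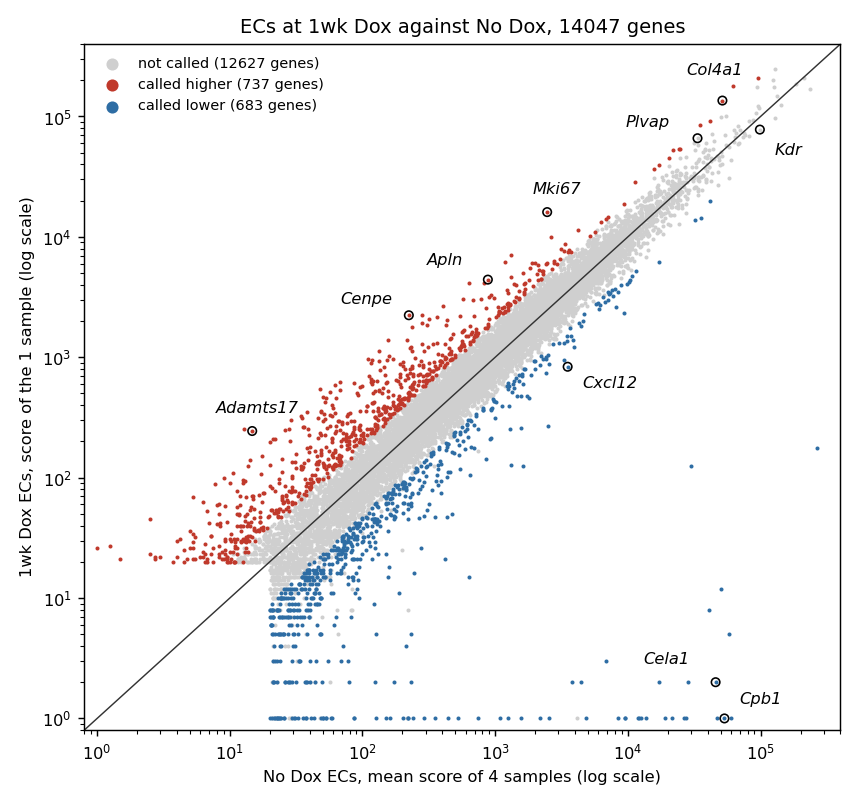
Score of the 1wk Dox EC sample (y axis, log scale) against the mean score of the 4 No Dox EC samples (x axis, log scale) for 14047 genes. The line marks equal scores. The 737 genes called higher are red and the 683 called lower blue, the lower right corner holds the pancreatic enzyme genes, and *Kdr* lies close to the line.

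Genes of mitosis had the largest share of calls among the 34 gene lists. Of 30 such genes 28 were called higher and 0 lower, against 5.25% of all genes, and their median difference was 2.52 against 0.06 over all genes. All 30 were above every No Dox sample and also above every 1wk WD sample, where 19.9% of all genes were. *Mki67*, which encodes the proliferation antigen Ki67, was at 16060 against 1852, 3545, 1953, and 2509, a difference of 2.75 (6.74-fold). No Dox averaged 2465 ± 776 (SD, n = 4), and 1wk WD ranged from 959 to 3210. The 1wk Dox sample was above every other EC sample, and 1wk WD was within or below the No Dox range.

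The members with the largest differences act on the spindle and the kinetochore. *Cenpe*, the kinetochore motor, was at 2233 against 115, 257, 198, and 324 (difference 3.41), and *Kif2c*, a microtubule depolymerase, at 151 against 7, 33, 5, and 25 (3.40). *Bub1*, a checkpoint kinase, was at 590 against 52, 70, 55, and 71 (3.24). For each of these the 1wk Dox score was more than 4 times the highest No Dox score. *Tpx2*, a spindle assembly factor, was at 1382 against 94 to 185 (3.19), *Anln*, a cytokinesis scaffold, at 2265 against 171 to 437 (3.08), and cyclin B1 (*Ccnb1*) at 265 against 18 to 68 (3.04). Topoisomerase IIα (*Top2a*) was at 4173 against 331 to 981 (2.82). The 2 members not called were *Aurka*, at 417 against 261 to 292 (0.60), and *Cenpa*, at 2351 against 1600 to 1838 (0.47), both still above the No Dox range.

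The promoters of these genes share sequence features that the comparison did not use. Cell cycle genes expressed late in the cycle are known to carry a CHR element (TTTGAA or TTCGAA) together with CCAAT boxes, and those of S phase an E2F site. In the RefSeq windows from 250 bases before to 50 after the start (GRCm38.p6), 20 of 27 mitosis genes with a window held a CHR element on either strand, 74.1%, against 19.4% of all 27025 promoters. A CHR element and a CCAAT box occurred together in 17 of the 27, 63.0%, against 7.7% of all. The windows of *Cdk1*, *Bub1*, and *Plk1* are shown because they hold both, with CHR elements and CCAAT boxes of either strand in capitals. They lie at chr10:69352863-69353162, chr2:127831810-127832109 (both minus strand), and chr7:122159185-122159484 (plus strand).
Cdk1: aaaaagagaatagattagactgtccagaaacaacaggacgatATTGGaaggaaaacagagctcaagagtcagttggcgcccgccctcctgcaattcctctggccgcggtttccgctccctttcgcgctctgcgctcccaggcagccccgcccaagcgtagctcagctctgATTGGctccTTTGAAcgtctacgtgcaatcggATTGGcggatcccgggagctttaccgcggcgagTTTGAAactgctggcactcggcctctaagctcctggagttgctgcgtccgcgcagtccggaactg
Bub1: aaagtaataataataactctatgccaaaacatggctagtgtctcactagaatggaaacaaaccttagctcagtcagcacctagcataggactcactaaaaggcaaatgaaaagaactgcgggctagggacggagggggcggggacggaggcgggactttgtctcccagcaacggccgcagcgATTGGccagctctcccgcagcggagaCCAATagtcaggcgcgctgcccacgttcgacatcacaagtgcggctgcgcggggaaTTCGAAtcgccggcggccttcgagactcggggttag
Plk1: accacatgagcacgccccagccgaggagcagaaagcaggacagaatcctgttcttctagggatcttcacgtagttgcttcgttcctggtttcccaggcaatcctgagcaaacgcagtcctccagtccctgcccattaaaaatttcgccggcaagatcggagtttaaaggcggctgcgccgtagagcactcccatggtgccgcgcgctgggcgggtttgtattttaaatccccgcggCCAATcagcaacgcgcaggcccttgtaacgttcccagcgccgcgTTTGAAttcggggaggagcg
*Cdk1*, the mitotic kinase, was at 968 against 156, 207, 202, and 110 (difference 2.56), and *Plk1*, a second mitotic kinase, at 138 against 36, 55, 45, and 51 (1.56). The window of *Cdk1* held 2 CHR elements and 3 CCAAT boxes. Such a match is only a run of letters, and no binding was measured.

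Genes of DNA replication moved less than those of mitosis. Of 30 replication genes 13 were called higher and 0 lower, against 5.25% and 4.86% of all genes. Their median difference was 0.91. *Rrm2*, the regulated subunit of ribonucleotide reductase, was at 621 against 77, 86, 45, and 63 (difference 3.22), *Uhrf1*, which maintains DNA methylation, at 460 against 59, 68, 53, and 74 (2.85), and *Pole*, the leading strand polymerase, at 905 against 174, 263, 183, and 184 (2.19). The subunits of the MCM helicase spread widely, from *Mcm2* at 697 against 205 to 338 (1.31) and *Mcm5* at 490 against 203 to 280 (1.02), both called although the call of *Mcm5* was lost without No Dox replicate 3 or 4, to *Mcm3* at 1356 against 667 to 771 (0.91) and *Mcm4* at 1062 against 714 to 1038 (0.27), which were not. *Pcna*, the sliding clamp, was at 3496 against 1961 to 2339 (0.68), a score that lay inside the 1wk WD range of 2305 to 4039. *Rfc4* was the lowest, at 302 against 442 to 673 (-0.86), and was not called. An E2F core (GCGGGAA or GCGCGAA, either strand) was in 14 of 24 replication promoters with a window, 58.3%, against 6.06% of all promoters and 1 of 27 mitosis promoters, 3.7%. This share too was counted whether or not a gene was called.

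**Figure D2:**
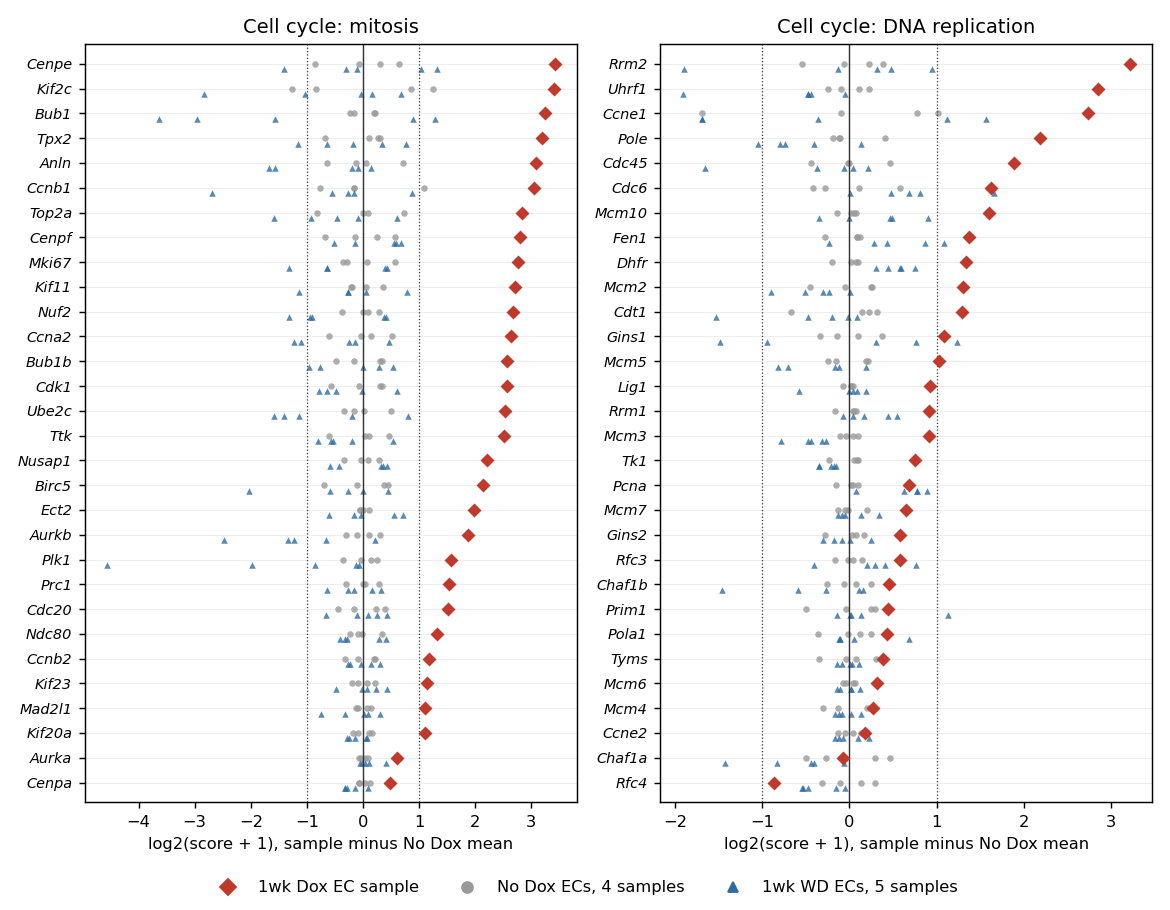
Each gene's log2(score + 1) minus the No Dox mean (x axis) for mitosis genes (left) and DNA replication genes (right), with 1wk Dox as red diamonds, the 4 No Dox samples as grey circles, and the 5 1wk WD samples as blue triangles. Dotted lines mark 2-fold. The 1wk Dox sample is to the right of all other samples for all 30 mitosis genes. Of these 28 were called higher, against 13 of 30 replication genes.

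Among 21 regulators of the cycle 6 were called higher and 0 lower, against 5.25% and 4.86% of all genes. Their median difference was 0.33. *E2f8*, an atypical E2F repressor, was at 547 against 49, 31, 42, and 69 (difference 3.55), and its partner *E2f7* at 2183 against 642, 777, 576, and 779 (1.66). *Foxm1*, a transcription factor of the late cycle, was at 1183 against 175, 265, 262, and 207 (2.40), and *Mybl2*, which acts with it, at 243 against 58, 106, 34, and 55 (2.04). *E2f2* was at 359 against 80, 42, 37, and 37 (2.93). The CDK inhibitor gene *Cdkn2b* was also called, at 1525 against 637 to 916 (1.09), but not after quantile normalization. *Ccnd1*, cyclin D1, the growth factor responsive cyclin, was at 10356 against 4867 to 6333 (0.85, not called) and at 1748 to 4052 at 1wk WD. The CDK inhibitor gene *Cdkn1a* (p21) was at 8825 against 11516 to 15933 (-0.64, not called). The core kinases *Cdk4*, at 1840 against 1380 to 1577 (0.33), and *Cdk2*, at 758 against 701 to 765 (0.07), were not called.

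Histone genes gave a mixed count. Of 30 with enough signal 12 were called higher and 2 lower, against 5.25% and 4.86% of all genes. Their median was 0.51, but only 1 was called higher among those with scores of 200 or more. The linker histone gene *Hist1h1b* was at 296 against 28, 60, 41, and 74 (difference 2.61), and *Hist1h2bb* at 98 against 16 to 33 (2.07). *Hist2h4*, at 38 against 72 to 111 (-1.21), was called lower, but not with a pseudocount of 20. Histone genes are near-identical copies, most scores were low, and how the reads were divided between copies is not given in the sources used here, so single members are uncertain.

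Of 23 basement membrane genes 11 were called higher and 0 lower, against 5.25% and 4.86% of all genes, with a median difference of 0.94. The chains of the major type IV collagen network were at 135553 against 44318, 55495, 51837, and 54635 for *Col4a1* (difference 1.40, 2.64-fold) and at 180455 against 53859, 67003, 64630, and 64035 for *Col4a2* (1.54, 2.90-fold). No Dox averaged 51571 ± 5081 and 62382 ± 5825 (SD, n = 4). At 1wk WD they ranged from 51336 to 74091 and from 52498 to 80819, below the 1wk Dox sample. Of the less common chains *Col4a3* was at 6941 against 6093 to 7645 (0.07) and *Col4a4* at 1862 against 1529 to 2679 (-0.08).

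*Col4a1* and *Col4a2* lie head to head, and their RefSeq windows (GRCm38.p6) share 78 bases on opposite strands. The windows are shown because both genes rose by a like amount, with the shared bases in capitals. That of *Col4a1* is at chr8:11312777-11313076 (minus strand) and that of *Col4a2* at chr8:11312555-11312854 (plus strand).
Col4a1: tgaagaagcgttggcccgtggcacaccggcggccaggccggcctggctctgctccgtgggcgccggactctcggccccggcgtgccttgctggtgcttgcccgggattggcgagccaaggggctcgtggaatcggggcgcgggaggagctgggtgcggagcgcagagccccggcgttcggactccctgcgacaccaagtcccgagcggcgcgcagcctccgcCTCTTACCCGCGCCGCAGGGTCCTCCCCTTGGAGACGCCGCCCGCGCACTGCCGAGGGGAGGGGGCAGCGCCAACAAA
Col4a2: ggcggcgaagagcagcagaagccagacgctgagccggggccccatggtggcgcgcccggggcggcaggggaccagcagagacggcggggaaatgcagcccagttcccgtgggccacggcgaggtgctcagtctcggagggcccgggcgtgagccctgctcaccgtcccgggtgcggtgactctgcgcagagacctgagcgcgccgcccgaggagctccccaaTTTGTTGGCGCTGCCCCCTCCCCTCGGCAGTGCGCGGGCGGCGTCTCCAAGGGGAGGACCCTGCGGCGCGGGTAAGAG
Both windows read 5′ to 3′ on the strand of their gene, so the shared stretch in one is the reverse complement of that in the other.

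Laminins, nidogens, and other proteins of the layer gave both called and uncalled members. *Lamc1* was at 92235 against 41327, 41977, 43015, and 39996 (difference 1.15), *Lamb1* at 36794 against 14557 to 16899 (1.22), and *Lama4*, the endothelial laminin chain, at 60157 against 30094 to 33505 (0.94, not called). *Nid1* was at 84898 against 30909 to 37500 (1.28) and *Nid2* at 53596 against 22299 to 26732 (1.11), the nidogens being the linkers between collagen and laminin. After quantile normalization of the EC samples *Lamc1* and *Nid2* came under the 2-fold limit. *Sparc*, a collagen-binding protein, was at 208460 against 78566 to 105951 (1.14). *Col18a1*, the source of endostatin, was at 5009 against 1302, 1930, 1397, and 1898 (1.64), and *Col15a1* at 45432 against 19404 to 22036 (1.15). The laminin gene *Lama3* was not higher, at 59483 against 56252 to 82092 (-0.17), nor was *Lama5*, at 16908 against 12858 to 14043 (0.32), above the range but not called. The called members *Col4a5*, at 31 against 3 to 21, and *Lamc3*, at 38 against 9 to 26, had low scores, lost their calls with a pseudocount of 20, and were at 22 to 270 and 68 to 139 at 1wk WD.

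Markers of perivascular cells were set beside these matrix genes. The summed score of 10 pericyte and smooth muscle markers was 17114 at 1wk Dox, 6957 to 15813 in No Dox, and 19941 to 79836 at 1wk WD, and 1 of the 10 was called higher, *Kcnj8*. The pericyte marker *Rgs5* was at 12236 against 4582, 8531, 4449, and 9981, and *Pdgfrb* at 755, inside the No Dox range of 423 to 1206. Of 6 fibroblast markers 4 were called higher and 1 lower, at a summed score of 631 against 213 to 426 in No Dox and 829 to 2677 at 1wk WD. The type I collagen chain *Col1a1* was at 86 against 10 to 33. Over all genes 5.25% were called higher and 4.86% lower. The part of these cells in the matrix result was not tested. In these bulk samples, fewer cells of a type and less RNA per cell cannot be told apart.

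Genes of matrix breakdown, adhesion, and collagen processing were also described. Over all genes 5.25% were called higher and 4.86% lower, and the counts of this paragraph are to be read against these shares. Of 46 MMP, ADAM, and ADAMTS genes 12 were called higher and 4 lower, with a median of 0.35. *Adamts5*, an aggrecanase, was at 9963 against 2608, 2546, 2581, and 2739 (difference 1.93), and *Adam19* at 6031 against 1998, 1953, 2033, and 1958 (1.60). In both, the 4 No Dox samples were nearly equal. *Adam12* was at 53110 against 19320 to 27387 (1.28), *Adamts4* at 891 against 247 to 387 (1.51), and *Mmp14*, a collagenase of the cell surface, at 1189 against 381 to 681 (1.18). *Adamts17* had the second largest rise of all genes under the naming rule, at 244 against 9, 22, 9, and 19 (4.06), and was at 91 to 178 at 1wk WD. The inhibitor *Timp1* was at 255 against 69 to 105 (1.57), the only call among 10 protease inhibitors and thrombospondins. Of 20 integrins 4 were called higher and 0 lower, among them *Itga2*, a collagen receptor subunit, at 1658 against 466 to 678 (1.54), *Itga5*, of the fibronectin receptor, at 13402 against 5484 to 6771 (1.11), and *Itga3*, a laminin receptor subunit, at 7458 against 3475 to 3625 (1.08). Of 15 collagen processing enzymes 1 was called higher, *Leprel1*, a collagen prolyl hydroxylase, at 683 against 112 to 268 (1.92) and 536 to 2107 at 1wk WD, and 1 lower, *Lox*, which crosslinks collagen, at 5 against 10 to 51 (-1.81), a call lost with a pseudocount of 20.

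Tip cells lead vascular sprouts, and several of their markers respond to VEGF-A. Of 20 genes on this list 7 were called higher and 0 lower, against 5.25% and 4.86% of all genes. Their median difference was 0.71, and 3 of 20 were called higher after quantile normalization of the EC samples. *Apln*, the peptide apelin of sprouting ECs, was at 4414 against 863, 1057, 804, and 799 (difference 2.33, 5.04-fold), while 1wk WD at 769 to 1050 overlapped No Dox. *Prnd*, a prion-like protein, was at 7075 against 1180, 1649, 1081, and 1310 (2.46) and at 2343 to 3177 at 1wk WD. *Kcne3*, a potassium channel subunit, was at 3019 against 636, 901, 931, and 664 (1.97). *Cxcr4*, the receptor of CXCL12, was at 2346 against 982 to 1295 (1.05), and *Adm*, adrenomedullin, at 652 against 231 to 373 (1.06), inside its 1wk WD range of 390 to 719. *Angpt2*, which loosens vessels, was at 3761 against 1883 to 2251 (0.91), just under the 2-fold limit. The calls of *Cxcr4* and *Adm* were lost when 1 No Dox replicate was left out. Of the 13 members not called, 9 were above the No Dox range, where 35.9% of all genes, called or not, were. *Esm1* was at 45009, inside the No Dox range of 36301 to 53952 (0.10), and *Dll4*, the Notch ligand of tip cells, was at 6939 against 5054 to 6110 (0.34), above all No Dox and 1wk WD samples and not called.

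VEGF receptors were not called. Of 9 ligand and receptor genes 0 were called in either direction, against 5.25% of all genes called higher and 4.86% lower. The median difference was -0.06. *Flt1*, the decoy receptor VEGFR1, was at 148373 against 127207 to 138669 (0.15) and *Flt4*, the receptor of VEGF-C, at 20208 against 12759 to 15564 (0.52). The co-receptor *Nrp1* was at 68370 against 76483 to 90241 (-0.26). Mouse *Vegfa* was low in ECs, at 140 against 191 to 281 (-0.69). All 3 receptors and *Nrp1* were above their 1wk WD ranges, which for *Flt1* was 72250 to 99647 and for *Kdr* 39326 to 61402.

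Genes of the capillary wall were described next. *Plvap*, which builds the diaphragms of fenestrae, was at 65953 against 26298, 36313, 37203, and 34114 (difference 0.99), about at the 2-fold limit but not called, and at 17977 to 32183 at 1wk WD. None of the 9 fenestra and caveola genes was called. *Cav1*, the caveolar coat protein, was at 18423 within the No Dox range of 13578 to 19556, and *Sdpr* (cavin-2) was at 7839 against 13121 to 15090 (-0.85). *Madcam1*, an addressin for lymphocytes, was at 615 against 105, 223, 158, and 120 (2.08), whereas *Vcam1*, at 122 against 207 to 450 (-1.22), and *Thbd*, the anticoagulant thrombomodulin, at 19784 against 37278 to 49997 (-1.06), were called lower among 18 adhesion and coagulation genes, and both calls were lost when 1 No Dox replicate was left out. *Ptgis*, prostacyclin synthase, was at 511 against 77, 54, 35, and 63 (3.19) and at 190 to 236 at 1wk WD. It was 1 of 3 called higher among 17 vasoactive genes, none of which was called lower. Over all genes 5.25% were called higher and 4.86% lower.

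**Figure D3:**
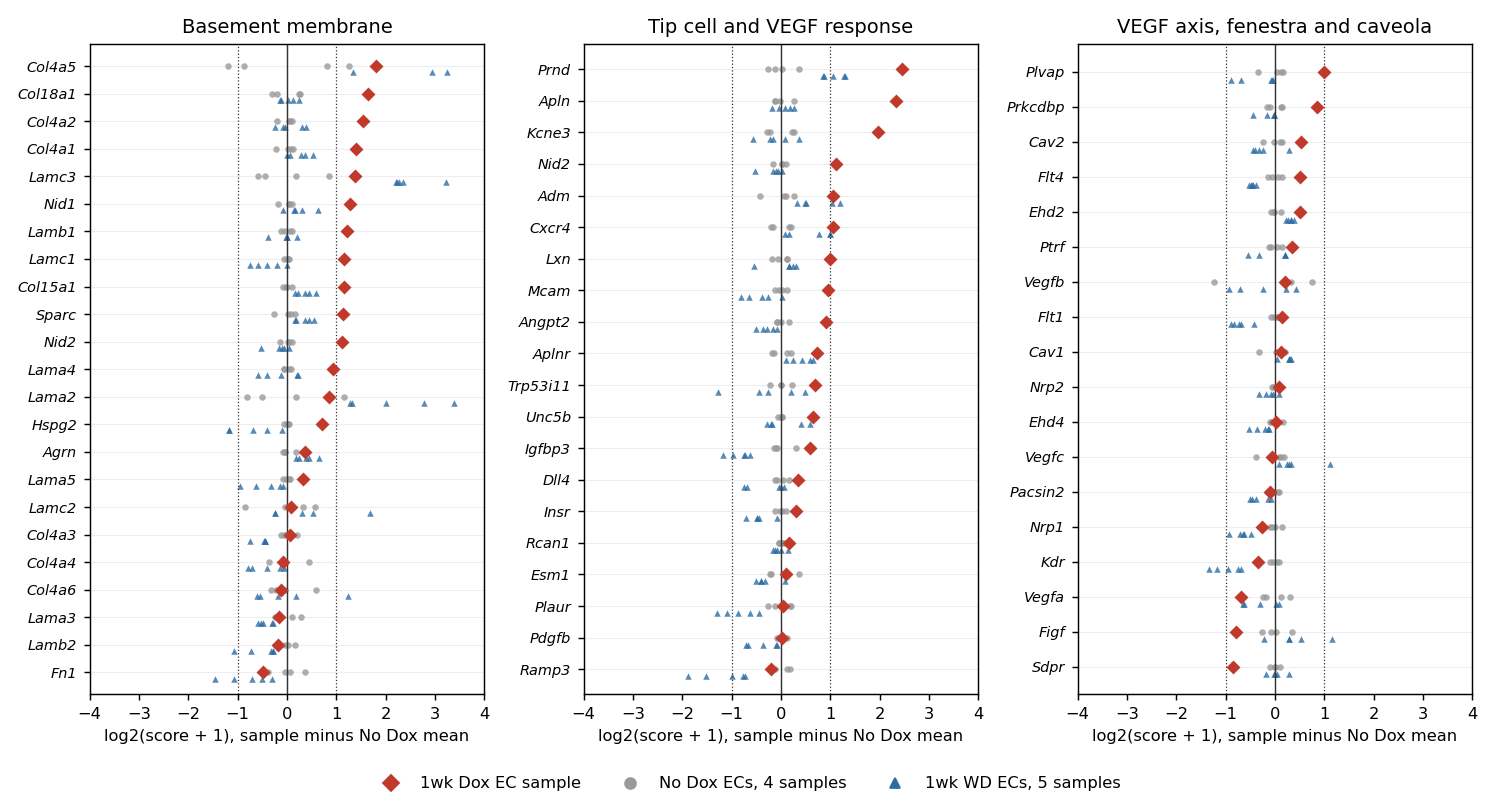
Each gene's log2(score + 1) minus the No Dox mean (x axis) for basement membrane genes (left), tip cell genes (middle), and VEGF, fenestra, and caveola genes (right). Red diamonds are 1wk Dox, grey circles the 4 No Dox samples, and blue triangles the 5 1wk WD samples, and dotted lines mark 2-fold. Of the 23 basement membrane genes 11 lie beyond 2-fold, as do *Apln*, *Prnd*, and *Kcne3*, and *Kdr*, *Flt1*, *Esm1*, and *Dll4* lie near 0.

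Of 9 arterial genes 2 were called lower and 0 higher, against 4.86% and 5.25% of all genes. Of the 9, 1 was above the No Dox range, and 7 were below the No Dox range, where 26.3% of all genes were. *Gja5*, a gap junction protein, was at 40 against 80, 146, 137, and 71 (difference -1.35) and *Bmx*, a kinase, at 74 against 96 to 206 (-1.03), a call lost without No Dox replicate 2 or 4. *Sox17* was at 3990 against 6250, 7095, 7468, and 6911 (-0.79) and *Efnb2*, ephrin-B2, at 10996 against 14937 to 20456 (-0.59), neither called. The other 2 members were *Gja4*, at 1238 within 1064 to 1383 (0.01), and *Dll4*, above the range as given before. Of 7 venous genes 1 was called higher and 1 lower, 2 were below the No Dox range, and the median difference was 0.08. The venous transcription factor *Nr2f2* was called higher, at 1065 against 384, 549, 379, and 484 (1.26), and was higher still in 3 of 5 1wk WD samples, which ranged from 1029 to 2263. *Vcam1*, at 122 against 207 to 450 (-1.22), was called lower, and *Darc* was at 59 against 61 to 185 (-0.51, not called). *Ephb4*, the venous receptor of ephrin-B2, was at 10793 within 10408 to 12205 (-0.05). Of 4 lymphatic markers with enough signal 2 were called lower and 0 higher. *Reln*, at 15 against 95 to 252 (-3.20), and *Lyve1*, at 81 against 166 to 414 (-1.67), were called lower, and *Prox1*, the lymphatic transcription factor, was at 800 within 699 to 913 (0.05). *Flt4*, on the same list, was at 20208 against 12759 to 15564 (0.52, not called), above all No Dox and 1wk WD samples.

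In the Notch pathway 2 of 16 were called higher, the feedback inhibitor *Nrarp*, at 1587 against 645 to 838, and *Heyl*, at 258 against 55 to 227, a call lost without No Dox replicate 1 or 3, and 0 lower. *Notch1* was at 17315 within 15933 to 17677 (0.05) and the target *Hey1* at 2073 against 2413 to 3322 (-0.41). None of 6 angiopoietin and Tie genes was called, with the receptor *Tek* at 25119 against 31426 to 34588 (-0.42). Of 27 endothelial transcription factors *Nr2f2* and *Foxc2* were called higher and 0 lower. Of 14 junction genes *Cldn5* was called higher and *Gja5* lower. In 22 axon guidance genes of vessels 1 was called, the repulsive guidance receptor *Robo1*, at 258 against 25, 61, 24, and 107 (2.50), inside its 1wk WD range of 86 to 364. None of 16 Wnt pathway genes and none of 19 unfolded protein response genes was called. All counts in this paragraph are to be read against 5.25% of all genes called higher and 4.86% lower.

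Immediate early genes, the first to respond to growth factors and also to tissue handling, lay below the No Dox range more often than all genes did, of which 26.3% were below it. Of 26 genes of this response and of MAPK feedback 0 were called higher and 4 lower, against 5.25% and 4.86% of all genes. Below the No Dox range lay 13 of the 26, and the median difference was -0.26. *Egr3* was at 6197 against 21226, 17745, 14755, and 15160 (-1.46), *Junb* at 801 against 1942, 1773, 2590, and 1652 (-1.29), *Ier2* at 1937 against 3264 to 5002 (-1.12), and *Fosl1* at 47 against 77 to 169 (-1.09), a call lost without No Dox replicate 1. *Fos* was at 11719 against 13630 to 18672 (-0.51) and *Jun* at 11147 against 15239 to 20807 (-0.64), below the range and not called. Of the 26 genes 8 were above the No Dox range and not called, whereas 35.9% of all genes lay above it. These 8 included the MAPK feedback inhibitors *Dusp6* at 2809 against 1720 to 1912 (0.64), *Dusp4* at 2475 against 1546 to 1697 (0.64), and *Spry4* at 20457 against 11824 to 15912 (0.59).

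Of 25 angiocrine growth factors 2 were called higher and 3 lower, against 5.25% and 4.86% of all genes. *Cxcl12*, the chemokine ligand of CXCR4, was at 834 against 2867, 3608, 3938, and 3652 (difference -2.06), below the 1wk WD range of 1563 to 2882 as well. *Pdgfa*, a mitogen for stromal cells, was at 1427 against 302, 591, 451, and 483 (1.68), and *Bmp2* at 321 against 89 to 198 (1.43). Of 13 chemokine genes 1 was called higher and 2 lower, and of 19 genes of BMP and TGF-β signaling 1 higher and 2 lower. *Id1*, a target of BMP signaling, was at 2779 against 5208 to 6554 (-1.05), a call lost without No Dox replicate 3, and the co-receptor *Tgfbr3* was at 3644 against 6857 to 8033 (-1.06). In the insulin-like growth factor axis 1 of 12 genes was called higher and 3 lower, with the binding protein genes *Igfbp4* at 936 against 277 to 465 (1.28) and *Igfbp5* at 394 against 1099 to 1463 (-1.68).

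Of 23 genes of serine, one-carbon, and amino acid supply 4 were called higher (17.4% against 5.25% of all genes) and 0 lower (against 4.86%). The called genes included *Slc7a5*, a transporter of large neutral amino acids, at 863 against 152 to 364 (1.76), and *Psat1*, of serine synthesis, at 599 against 185 to 302 (1.34). In 17 genes of glucose uptake and glycolysis 0 were called higher and 2 lower, *Slc2a3* at 239 against 464 to 539 (-1.05, lost with a pseudocount of 20) and *Pfkfb3*, which stimulates glycolysis, at 3195 against 5909 to 7331 (-1.01), a call lost without No Dox replicate 3. Of 15 capillary fatty acid genes 1 was called higher, *Angptl4*, and 0 lower. The call of *Angptl4* was lost without No Dox replicate 1 and with the arithmetic mean of No Dox. Of 18 hypoxia targets 1 was called higher, *Adm*, and 2 lower, among them *Lox*. The calls of *Adm* and *Lox* were lost under alternatives given before. Among 18 apoptosis genes the pro-death *Pmaip1*, at 46 against 137 to 189 (-1.68), and the pro-survival *Bcl2l1*, at 3974 against 7682 to 10278 (-1.15), were both called lower. None of 25 interferon-stimulated genes was called (median -0.27), and of 14 antigen presentation genes only *H2-Aa*, a class II chain, at 93 against 339 to 385 (-1.94). Ribosomal protein genes, at 1 higher and 3 lower of 77 with a median of 0.02, stayed near the whole table.

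**Figure D4:**
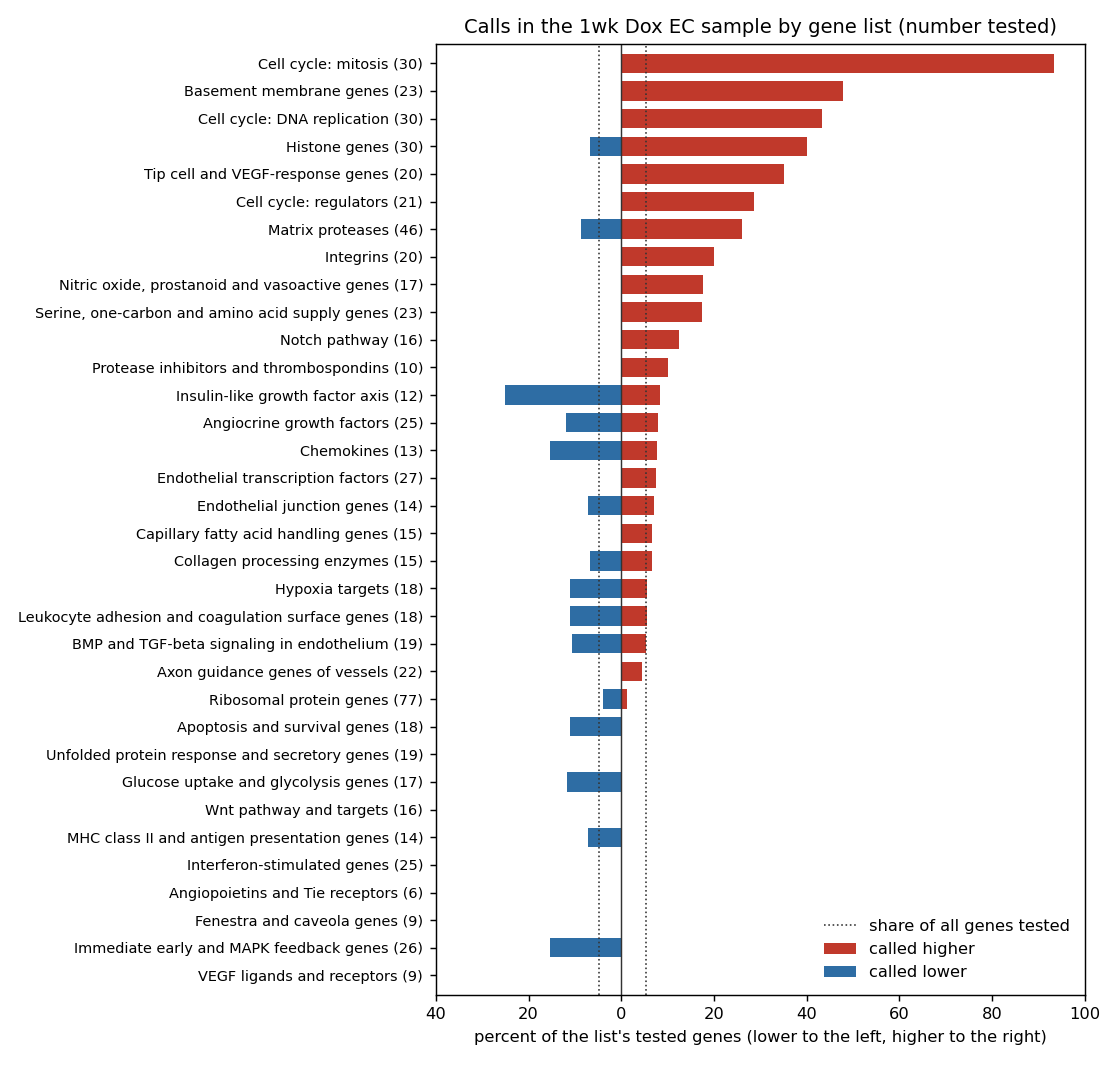
Percent of each gene list's tested genes called higher (red, to the right) and lower (blue, to the left) in the 1wk Dox EC sample, with the number tested in parentheses. Dotted lines mark the shares of all genes, 5.25% higher and 4.86% lower. Mitosis genes stand furthest out, with 28 of 30 called higher, and VEGF ligand and receptor genes have 0 calls.

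The largest rises over the whole table included 5 genes of the cell cycle lists. Among genes called higher with a score of 200 or more, the 15 largest rises ran from 3.19 to 5.04, and 14 of the 15 were above every 1wk WD sample. *Rad51ap1* (DNA repair), at 253 against 8 to 58, *Gtse1* at 209 against 10 to 39, and the kinases *Pbk*, at 353 against 21 to 56, and *Melk*, at 324 against 24 to 47, stood beside *E2f8*, *Cenpe*, *Bub1*, *Rrm2*, and *Tpx2*, the 5 on those lists. The others were *Mia2*, at 253 against 19, 29, 2, and 1 but at 8 to 259 at 1wk WD, *Adamts17*, *Pacsin1* at 210 against 6 to 32, the growth factor pleiotrophin (*Ptn*) at 301 against 21 to 35, *Dmp1* at 249 against 15 to 42, and *5730590G19Rik* at 470 against 33 to 68. Over all 737 genes called higher, 59 were on the cell cycle or histone lists, as were 2 of the 683 called lower.

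The 15 largest falls named enzymes and other products of the exocrine pancreas. The elastase gene *Cela1* was at 2 at 1wk Dox against 8002, 163400, 7167, and 4793 in No Dox, *Cpb1*, a carboxypeptidase, at 1 against 11800, 186417, 9042, and 6403, and the lipase gene *Pnlip* at 1 against 4768, 93169, 5369, and 2698. All 15 were at 5 or below at 1wk Dox, and all 15 were highest in No Dox replicate 2. The others were *2210010C04Rik*, *Rnase1*, *Amy2a3*, *Clps*, *Amy2a2*, *Cela2a*, *Reg1*, *Prss2*, *Amy2a5*, *Sycn*, *Cela3b*, and *Pnliprp1*, of which the amylase genes are near-identical copies. The differences ran from -13.34 to -10.92, and where the 1wk Dox sample is at the lowest score no fold is given. The summed score of 10 acinar markers was 203 at 1wk Dox, 58434 to 1574160 in No Dox, and 686 to 57172 at 1wk WD, or 0.000584% of all scores at 1wk Dox against 0.179% to 4.51% in No Dox. Of these 10 markers 9 had enough signal, and all 9 were called lower.

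Some markers of other cells were also lower, to be read against 4.86% of all genes called lower. The pancreatic polypeptide gene *Ppy* was at 1 against 67 to 303, and 3 of 6 non-β endocrine markers and 2 of 3 duct markers were called lower. The insulin gene *Ins1* was at 168, within the No Dox range of 143 to 1299, and 1 of 6 β cell markers, *Iapp*, was called lower. Of 4 erythroid markers 3 were called lower, among them *Hbb-b1* at 26 against 49 to 204. None of 2 neutrophil, 2 lymphocyte, and 3 platelet markers was called. The part of these cells in the falls was not tested. In total 334 of the 683 genes called lower varied by more than 0.5 (SD of log2 scores) among the 4 No Dox samples, and 319 had a score under 20 at 1wk Dox.

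**Figure D5:**
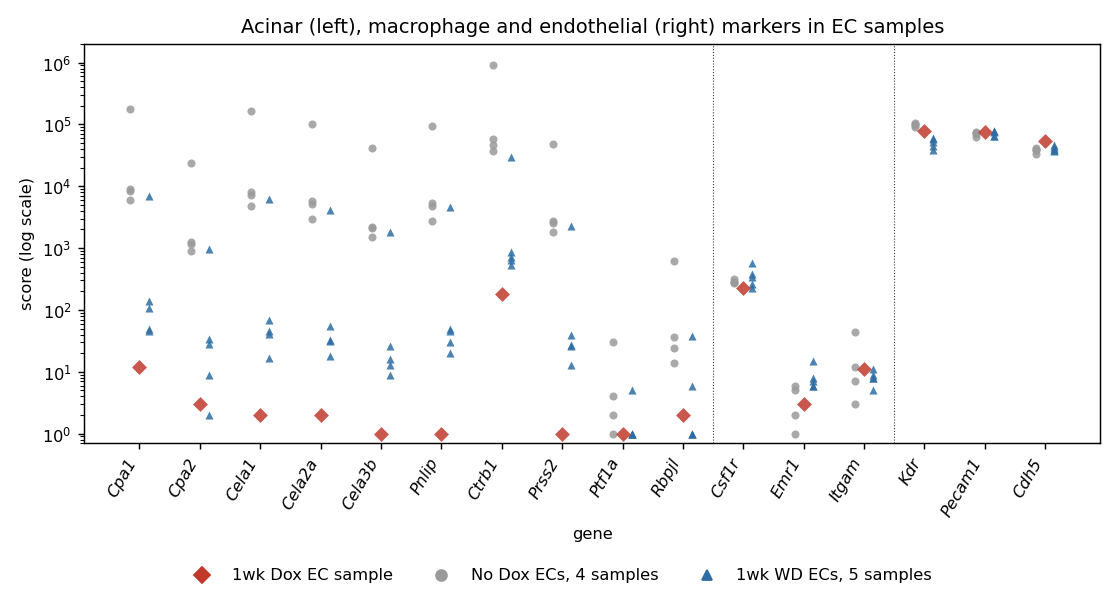
Scores (y axis, log scale) of 10 acinar markers (left), 3 MΦ markers (middle), and 3 endothelial markers (right) in the 1wk Dox EC sample (red diamonds), the 4 No Dox EC samples (grey circles), and the 5 1wk WD EC samples (blue triangles). Acinar markers are at 178 or below in the 1wk Dox sample, and 8 of the 10 are at 914 or above in all 4 No Dox samples, while *Kdr*, *Pecam1*, and *Cdh5* are at 32793 or above in all samples.

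Falls of genes that varied little among the No Dox samples were listed after the values had been seen. Of the genes with a No Dox SD of 0.5 or less, 3.84% were called higher and 2.83% lower. Among called genes with a No Dox score of 200 or more and a No Dox SD of 0.5 or less, the 10 largest falls were *D830014E11Rik*, *Tmem56*, *Slc7a10*, *Il31ra*, *Slc26a10*, *Fam107a*, *Arhgef25*, *Fmo1*, *Pmp2*, and *Alpl*. *D830014E11Rik* was at 1 against 248, 175, 197, and 191, and at 134 to 192 at 1wk WD. *Il31ra*, a cytokine receptor, was at 125 against 1913, 1257, 2031, and 1268 (difference -3.65), and *Fmo1*, a monooxygenase, at 253 against 1380, 1146, 1408, and 1250 (-2.35). *Slc7a10*, an amino acid transporter, was at 16 against 222 to 271 (-3.86), and *Alpl*, alkaline phosphatase, at 118 against 423 to 596 (-2.19).

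*Mki67* was also examined in the other sorted cells of the same experiment, as scores only. At 1wk Dox it was at 21479 and 16200 in the 2 MΦ samples and at 1620 to 17867 in the 5 β cell samples, against 5586 to 12226 and 1320 to 5660 at No Dox. The 2 MΦ samples share the identifier series of the 1wk Dox EC sample. The 1wk WD β cell sample of that series had 400, where the other 2 of its group had 1986 and 4843.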

How the data were processed

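CD31+ ECs, β cells, and MΦs were sorted from dispersed islets, and their amplified RNA (NuGEN Ovation) was sequenced as paired 50 bp reads. Per the submitters' processing notes and the study's methods, the authors aligned reads to mm9 with TopHat2 2.0 and normalized by TMM in Avadis NGS. The annotation version and strand setting are not given in the sources used here. The deposited value of a gene is a whole-number score of at least 1. Read counts could not be recovered from it, so depth is unknown and no counting interval is given. Of 38 sample columns 32 were used. The other 6 (3 EC and 3 MΦ) share the header prefix of the 1wk Dox columns but match no sample label, and were not used. Date-like entries were changed back to symbols for 25 genes, and 252 rows share a symbol.

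Differences were taken as described with the results, with a pseudocount of 1 and a score minimum of 20, with numpy 2.4.6 and pandas 2.3.3 under Python 3.11.15. Figures were drawn with matplotlib 3.10.9. With 1 sample at 1wk Dox no test was made. The code was checked on simulated data, which gives no error rate for the calls. Named were the 15 largest changes each way among called genes with a score of 200 or more, up to 8 called members of each of 34 gene lists, their 3 defining members, and the 16 marker lists. Other members named with their values were picked from the lists after these were seen. The samples and lists were chosen with earlier results of these data known. Alternatives were pseudocounts of 0.1 and 20, no minimum or one of 200, median-of-ratios and quantile scaling, the arithmetic mean of No Dox, the range with 1wk WD, and leaving out each No Dox replicate. The study describes the samples of a group as biological replicates, each pooled from several mice. Promoters were matched by RefSeq symbol or synonym.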

Additional observations from a re-analysis of the deposited data

Results flagged for a closer look

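The samples below stood apart from the others of their group by the ratio of the gap to the nearest sample over the group's whole range, by Dixon's limit at 95% for 4 No Dox and 5 1wk WD samples. Over the 176 genes named, 21 of the No Dox and 27 of the 1wk WD groups passed the limit, where chance alone passes about 1 in 20 groups. All 15 of the largest falls passed in No Dox, with replicate 2 highest, at ratios of *2210010C04Rik* (0.975), *Amy2a2* (0.97), *Amy2a3* (0.975), *Amy2a5* (0.971), *Cela1* (0.98), *Cela2a* (0.972), *Cela3b* (0.984), *Clps* (0.973), *Cpb1* (0.97), *Pnlip* (0.97), *Pnliprp1* (0.979), *Prss2* (0.98), *Reg1* (0.971), *Rnase1* (0.986), and *Sycn* (0.966). The same 15 genes passed at 1wk WD with replicate 1 highest, at *2210010C04Rik* (0.994), *Amy2a2* (0.986), *Amy2a3* (0.984), *Amy2a5* (0.992), *Cela1* (0.992), *Cela2a* (0.991), *Cela3b* (0.991), *Clps* (0.991), *Cpb1* (0.994), *Pnlip* (0.994), *Pnliprp1* (0.991), *Prss2* (0.989), *Reg1* (0.986), *Rnase1* (0.995), and *Sycn* (0.991). These genes are all acinar products and moved together, so they are not separate cases.

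Without these 15 genes, 6 groups passed in No Dox and 12 at 1wk WD, of 161 each, to be read against the 1 in 20 that chance alone passes. In No Dox the sample standing apart differed from gene to gene. Replicate 1 was the highest for *E2f2* (0.884). Replicate 1 was the lowest for *Alpl* (0.896). Replicate 2 was the highest for *Darc* (0.919), *Pole* (0.888), and *Ppy* (0.987). Replicate 4 was the highest for *Pmaip1* (0.962).

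At 1wk WD the sample standing apart also differed. Replicate 1 was the highest for *Lamc3* (0.887). Replicate 1 was the lowest for *Cav1* (0.795). Replicate 2 was the highest for *Efnb2* (0.755). Replicate 3 was the lowest for *Gja4* (0.825) and *Ptgis* (0.717). Replicate 4 was the highest for *Col1a1* (0.932), *Esm1* (0.727), *Itga2* (0.719), *Itga8* (0.731), and *Ptn* (0.727). Replicate 5 was the lowest for *Col4a3* (0.965) and *Lxn* (0.787). These 1wk WD values do not enter the differences between 1wk Dox and No Dox.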

How the results depend on the processing

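No paired analysis was made, since 1wk Dox has 1 sample and the labels name no pairs. The 737 genes called higher and 683 called lower were 671 and 746 after median-of-ratios scaling and 768 and 611 after quantile normalization. Leaving out each No Dox replicate gave 735 to 805 higher, 682 to 761 lower, and 66.7% to 70.9% of genes outside the range. A pseudocount of 20 left 400 genes lower, a minimum score of 200 left 443 higher and 244 lower, and counting only genes beyond the 1wk WD range too left 385 lower and, as percent of genes outside the No Dox range and the 1wk WD range together, 32.6%. Restricting to genes with a No Dox SD of 0.5 or less, chosen after seeing the data, left 473 higher and 349 lower. Of 129 genes named as called none reversed, but some calls were lost. Some of these were within a small margin of 2-fold, but *Lox* (-1.81) and *Col4a5* (1.80) were not. Leaving out 1 No Dox replicate ended 16 calls. *Angptl4* came to 0.77, *Fosl1* to -0.85, *Cxcr4* to 0.99, *Lxn* to 0.94, *Heyl* to 0.99, and *Itm2c* to 0.97 without replicate 1. *Bmx* came to -0.89, and *Vcam1*, *Adora2a*, and *Itm2c* just under the limit, without replicate 2. *Itga8* came to 0.82, *Adm* to 0.92, *Thbd* to -0.96, *Pfkfb3* to -0.95, *Id1* to -0.99, *Mcm5* to 0.97, *Bmper* to 0.94, *Heyl* to 0.97, and *Adora2a* just under the limit without replicate 3. *Bmx* came to -0.94, *Mcm5* to 0.94, *Bmper* to 0.94, *Lxn* to 0.98, and *Cxcr4* just under the limit without replicate 4. A pseudocount of 20 ended 12 calls, those of *Lox*, *Slc2a3*, *Col4a5*, *Lamc3*, *Itga8*, *Bmper*, *Bmx*, *Fosl1*, *Hist2h4*, *Itm2c*, *Lxn*, and *Mcm5*. Quantile normalization ended 11, median-of-ratios scaling 3, and the arithmetic mean 4. For mitosis genes 26 to 28 were called higher under all alternatives, for basement membrane genes 9 to 12, and for replication genes 8 to 13. The single 1wk Dox sample limits all values.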

Other observations

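*Il31ra* and *Tmem56*, both called lower at 1wk Dox, split the 1wk WD samples as well. *Il31ra* was at 1272, 1651, 67, 99, and 1074 in 1wk WD replicates 1 to 5, and at 1257 to 2031 in No Dox. *Tmem56* was at 174, 174, 2, 2, and 143 in the same order, and at 151 to 322 in No Dox. In both genes 1wk WD replicates 3 and 4 were low, as was the 1wk Dox sample at 125 and 2.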
